A study of Homo sapiens with 15 samples.

Results

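Transcripts of 10 genes for secreted cytokines and chemokines were examined in H1299 cells that carried p53 constructs. The genes were CCL2, CXCL1, CXCL2, CXCL8, CX3CL1, CSF1, LIF, IL6, IL1A and IL1B, which are 10 of the 61552 gene IDs in each count file. They were chosen by symbol with earlier results of these same counts known, and the levels of CCL2, CSF1 and LIF were among the values in view. Their differences are therefore given as a description, as log2 differences with a standard error (SE) and without printed p-values. Where a member is said to pass a threshold, or to gain or lose a call, that is also a description. It is not support for a difference.

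Chemokines are small secreted proteins that bind G protein-coupled receptors and steer leukocytes along a gradient. Cytokines such as LIF, IL6 and the interleukin-1 proteins act through their own cell surface receptors, and many of these genes are switched on by NF-kB and AP-1 transcription factors. Several of them belong to the secretome that senescent cells release, and p53 is known to influence that programme in several cell types.

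H1299 is a line from a human lung cancer and is known to have lost p53, so every group shared that background. Libraries of 2023 came from cells with a control vector, named Ctrl, or with the wild-type protein, named WT. Those of 2022 came from cells with p53, LLPSEp53_1 or LLPSEp53_2, and each of the 5 groups had 3 libraries of total RNA. The series title places the LLPSEp53 constructs in work on p53 activity and its propensity for liquid-liquid phase separation. The sources used here do not name the vector, its promoter, the time after its introduction or the changes made in the LLPSEp53 constructs, nor is it stated whether the libraries of a group came from separate cultures. The 2022 data hold no control vector. The labels place p53 replicate 2 in a different batch, and the p53 level below is that of replicates 1 and 3 unless replicate 2 is named.

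Total counts were 16208538 to 19228748 per library in 2023 and 13535397 to 16438272 in 2022, so a count of 0 allowed up to 0.156 to 0.222 CPM (counts scaled to the library total; 3 counts per library, counting error only). The p53 target genes CDKN1A, a cell cycle inhibitor, and MDM2, the ubiquitin ligase that degrades p53, rose 3.13-fold and 4.61-fold in WT (edgeR adjusted p = 5.8e-09 and 4.9e-11). In 2022 CDKN1A was at 284 and 286 CPM in p53, at 399 to 451 CPM in LLPSEp53_1 and at 232 to 281 CPM in LLPSEp53_2, while p53 replicate 2 stood apart at 723 CPM. Epithelial keratins KRT8 and KRT18 and the mesenchymal filament VIM were at 700 CPM or above in every library, as is known of this line. Of 13 markers of leukocytes, endothelium, fibroblasts and other cells, PTPRC, MS4A1 and LUM had 0 counts throughout and no marker passed 3.45 CPM. In RNA from whole cultures, fewer cells of a type and less RNA per cell cannot be told apart.

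Levels of the 10 genes differed widely when compared per kilobase of exon. In Ctrl, CXCL2 was at 122 CPM per kilobase, LIF at 7.18 ± 1.06, CSF1 at 6.13 ± 2.18, CXCL1 at 2.89 ± 0.442, CCL2 at 0.753 ± 0.203 and CXCL8 at 0.607 ± 0.101 (SD, n = 3). The neighbours LIF and CSF1, and CCL2 and CXCL8, did not differ beyond their spread. In p53, CCL2 was second in the order at 15.7 ± 8.73 CPM per kilobase (SD, n = 2), below CXCL2 at 67.4 ± 15.2 and above LIF at 6.96 ± 0.526. The 2 years were scaled separately and no test was made between them. IL6 never exceeded 2 counts, CX3CL1 6 counts, IL1B 8 counts and IL1A 18 counts in any library, and none of these 4 genes passed the filter on low counts.

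**Figure D1:**
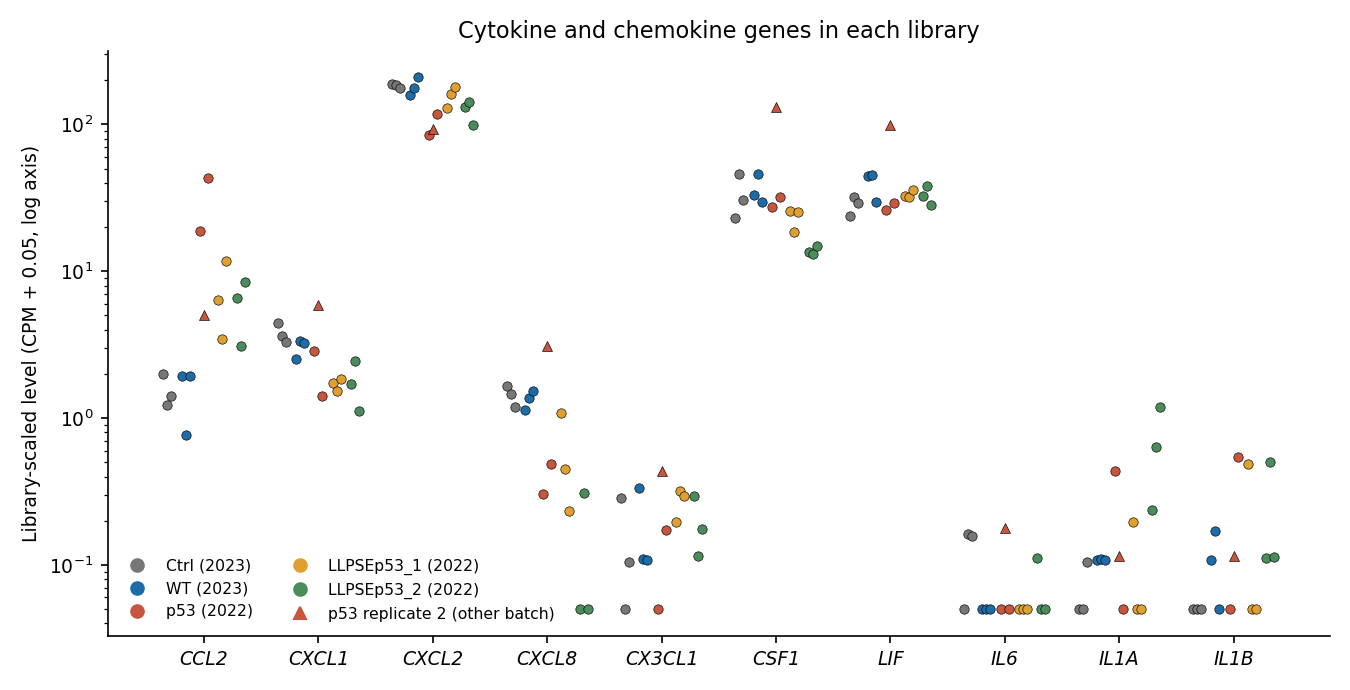
The 10 genes by library, with one point per library, genes on the x axis and the level on a log y axis as CPM after adding 0.05; the triangle is p53 replicate 2. CXCL2 is highest in 14 of the 15 libraries (CSF1 in p53 replicate 2), IL6, IL1A, IL1B and CX3CL1 lie near the bottom, and CCL2 spans 3.04 to 43.4 CPM in the 2022 libraries.

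CXCL1, CXCL2 and CXCL8 encode chemokines that attract neutrophils through CXCR2, and they lie close together on chromosome 4 of GRCh38. CXCL8 (ENSG00000169429) spans 73740506 to 73743716 and CXCL1 (ENSG00000163739) spans 73869393 to 73871242, both on the plus strand. CXCL2 (ENSG00000081041) spans 74097035 to 74099293 on the minus strand. Their promoter windows run from 250 bases before to 50 bases after the transcription start in RefSeq on GRCh38.p14. The windows are shown because they share a string of letters and the genes stood at very different levels. Capitals mark the letters GGAATTTCC, an NF-kB type sequence, which begin 78 bases before the start in CXCL1, 77 bases before it in CXCL2 and 91 bases before it in CXCL8.
CXCL1, chr4:73869143-73869442, plus strand: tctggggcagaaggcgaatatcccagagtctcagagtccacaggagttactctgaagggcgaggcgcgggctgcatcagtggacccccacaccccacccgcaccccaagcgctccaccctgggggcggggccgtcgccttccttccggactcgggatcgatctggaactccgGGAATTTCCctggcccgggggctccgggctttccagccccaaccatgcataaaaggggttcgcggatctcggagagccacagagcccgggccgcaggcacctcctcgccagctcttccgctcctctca
CXCL2, chr4:74099146-74099445, minus strand: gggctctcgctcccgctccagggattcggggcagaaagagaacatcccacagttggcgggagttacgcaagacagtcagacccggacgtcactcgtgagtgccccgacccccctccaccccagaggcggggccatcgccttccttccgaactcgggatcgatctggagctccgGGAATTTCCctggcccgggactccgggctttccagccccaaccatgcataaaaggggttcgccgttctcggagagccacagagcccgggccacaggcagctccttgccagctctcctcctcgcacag
CXCL8, chr4:73740319-73740618, plus strand: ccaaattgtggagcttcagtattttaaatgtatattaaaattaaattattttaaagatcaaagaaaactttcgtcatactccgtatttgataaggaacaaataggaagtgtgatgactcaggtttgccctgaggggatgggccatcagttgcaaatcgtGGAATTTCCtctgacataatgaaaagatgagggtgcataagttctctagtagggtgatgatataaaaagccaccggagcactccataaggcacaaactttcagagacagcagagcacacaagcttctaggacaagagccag
The windows of CXCL1 and CXCL2 were 69.7% identical over their alignment, against 41.9% for CXCL1 with CXCL8 and 42.6% for CXCL2 with CXCL8.

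Promoter windows were found for 6 of the 10 genes (CXCL1, CXCL2, CXCL8, IL1A, IL1B and IL6), and CCL2, CSF1, LIF and CX3CL1 were not matched. IL1A had 2 windows, which overlap and share their AP-1 letters, so these are counted in both. Both strands were searched. GGAATTTCC was in 3 of the 7 windows, those of CXCL1, CXCL2 and CXCL8, and in 0.461% of the 35116 windows of all genes. The AP-1 letters TGANTCA were in 3 of 7 (CXCL8 and both windows of IL1A) against 7.71% of all windows, and TATAAA was in 2 of 7 (CXCL8 and 1 window of IL1A) against 11.5%. The consensus half-site of p53 had no match in the 7 windows and was in 6.63% of all windows. A match is a string of letters and was not tested as a binding site. The letters were chosen after the sequences were available, so the shares are a description and not a test of enrichment. Only exact matches were counted, so the similar letters GGGATTTTCC in the IL6 window were left out.

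CXCL2 was the most abundant of the 3 neutrophil chemokines. In 2023 it was at 159, 176 and 209 CPM in the WT libraries and at 188, 185 and 177 CPM in the Ctrl libraries, which overlapped, with a log2 difference of -0.01 ± 0.11 (SE). In 2022 it was at 85.1 and 117 CPM in p53, at 128, 161 and 180 CPM in LLPSEp53_1 and at 131, 142 and 98.7 CPM in LLPSEp53_2. All LLPSEp53_1 libraries were above both p53 libraries, whereas LLPSEp53_2 overlapped p53. The difference from p53 was 0.63 ± 0.20 for LLPSEp53_1, or 1.55-fold higher, and 0.29 ± 0.20 for LLPSEp53_2. Replicate 2 of p53, at 93.6 CPM, lay between the other p53 libraries, unlike most other members.

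CXCL1 was at 2.46, 3.31 and 3.18 CPM in WT and at 4.37, 3.60 and 3.25 CPM in Ctrl. It was at 2.81 and 1.36 CPM in p53, at 1.68, 1.47 and 1.78 CPM in LLPSEp53_1 and at 1.66, 2.40 and 1.07 CPM in LLPSEp53_2. The groups overlapped in each comparison, with log2 differences of -0.33 ± 0.25 for WT, -0.34 ± 0.40 for LLPSEp53_1 and -0.29 ± 0.39 for LLPSEp53_2. Without p53 replicate 1 the signs of the last 2 turned, to 0.27 and 0.32. In p53 replicate 2 it was at 5.83 CPM, 2.79 times the other p53 libraries, and counted as an ordinary library it moved the differences to -1.01 and -0.96. The transcripts of these chemokines share sequence, so reads could be split between them: 4.81% of the 50-base windows of CXCL1 also occur in CXCL2, and 8.99% of those of CXCL2 also occur in CXCL3. With 100-base windows these shares were 0% and 5%.

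CXCL8, which encodes interleukin-8, was at 1.09, 1.32 and 1.47 CPM in WT and at 1.60, 1.41 and 1.14 CPM in Ctrl. Those groups overlapped, with a log2 difference of -0.09 ± 0.35. In 2022 its counts were 4 and 7 in p53, 14, 6 and 3 in LLPSEp53_1 and 0, 4 and 0 in LLPSEp53_2, and it did not pass the filter. Replicate 2 of p53 held 47 counts, 3.04 CPM, which was 8.82 times the mean of the other p53 libraries.

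CCL2 encodes the chemokine that draws monocytes through CCR2 (ENSG00000108691; chromosome 17, 34255218 to 34257203, plus strand). In 2023 it was barely detected, at 1.89, 0.721 and 1.88 CPM in WT and 1.95, 1.18 and 1.36 CPM in Ctrl (12 to 33 counts), and the difference was 0.01 ± 0.38. In 2022 it was at 18.9 and 43.4 CPM in p53, at 6.30, 3.42 and 11.7 CPM in LLPSEp53_1 and at 6.53, 3.04 and 8.36 CPM in LLPSEp53_2. Every LLPSEp53 library lay below both of those p53 libraries. Replicate 2 of p53, with 2.54 times the CDKN1A of the other p53 libraries, held 4.99 CPM of CCL2, which was 0.160 times their mean and within the range of both LLPSEp53 groups.

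The mean of CCL2 was 31.1 ± 17.3 CPM in p53 (SD, n = 2), 7.14 ± 4.20 in LLPSEp53_1 and 5.98 ± 2.702 in LLPSEp53_2 (SD, n = 3 each). Against p53 it was 4.33-fold lower in LLPSEp53_1 (log2 difference -2.12 ± 0.46) and 5.19-fold lower in LLPSEp53_2 (-2.38 ± 0.46). Both differences use the same p53 libraries. LLPSEp53_2 passed the adjusted threshold of 0.05 and LLPSEp53_1 did not, but the difference between the constructs was -0.26 ± 0.45. The larger p53 value weighed on both: without p53 replicate 3 the differences were -1.40 and -1.66 and neither passed. The call for LLPSEp53_2 was also lost without its replicate 1 (-2.44), without its replicate 2 (-2.06) and when p53 replicate 2 was counted as an ordinary library (-1.90). That for LLPSEp53_1 was gained without its replicate 1 or its replicate 3.

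CD14, a monocyte marker, was low in the same libraries, with 16 and 13 counts in p53, 5, 2 and 12 in LLPSEp53_1 and 8, 4 and 8 in LLPSEp53_2. The most, 27 counts, were in p53 replicate 2, and its CCL2 was below that of the other p53 libraries. Over the list of 13 markers of other cell types, 10 of which had at least 1 count, the sum was 10.9 and 9.18 CPM in p53, 4.69 to 8.37 CPM in LLPSEp53_1 and 6.80 to 7.80 CPM in LLPSEp53_2, with 7.96 CPM in p53 replicate 2. Like CCL2, the sum in p53 replicates 1 and 3 was above that of every LLPSEp53 library. The single markers did not all go the same way. PECAM1, at 2.49 and 2.05 CPM in p53, was like CD14 above every LLPSEp53 library. PDGFRB was also above them, narrowly, at 1.41 and 1.74 CPM in p53 and at most 1.39 CPM in LLPSEp53_1 and 1.36 CPM in LLPSEp53_2. COL1A1, at 3.45 and 2.61 CPM in p53, overlapped LLPSEp53_1 (1.88 to 2.77 CPM) and LLPSEp53_2 (1.82 to 3.33 CPM). CDH5 and DCN also overlapped both groups, and EPCAM overlapped LLPSEp53_2. LYZ had 0 counts in p53 replicates 1 and 3, 0 in each LLPSEp53_1 library and 1, 1 and 3 in LLPSEp53_2. VWF had a mean of 0.722 CPM in p53, 1.04 CPM in LLPSEp53_1 and 0.676 CPM in LLPSEp53_2. The pan-leukocyte marker PTPRC had 0 counts in every library. The part of these markers in the CCL2 values was not tested.

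CX3CL1 encodes a chemokine that is made as a membrane protein and shed (chromosome 16, 57372458 to 57385048, plus strand). It held 0 to 5 counts in the 2023 libraries and 0 to 6 counts in those of 2022, which is too few for a fold change. In CPM the LLPSEp53_1 libraries (2, 4 and 4 counts) lay above p53 replicates 1 and 3 (0 and 2 counts). Nothing is read from so few counts.

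**Figure D2:**
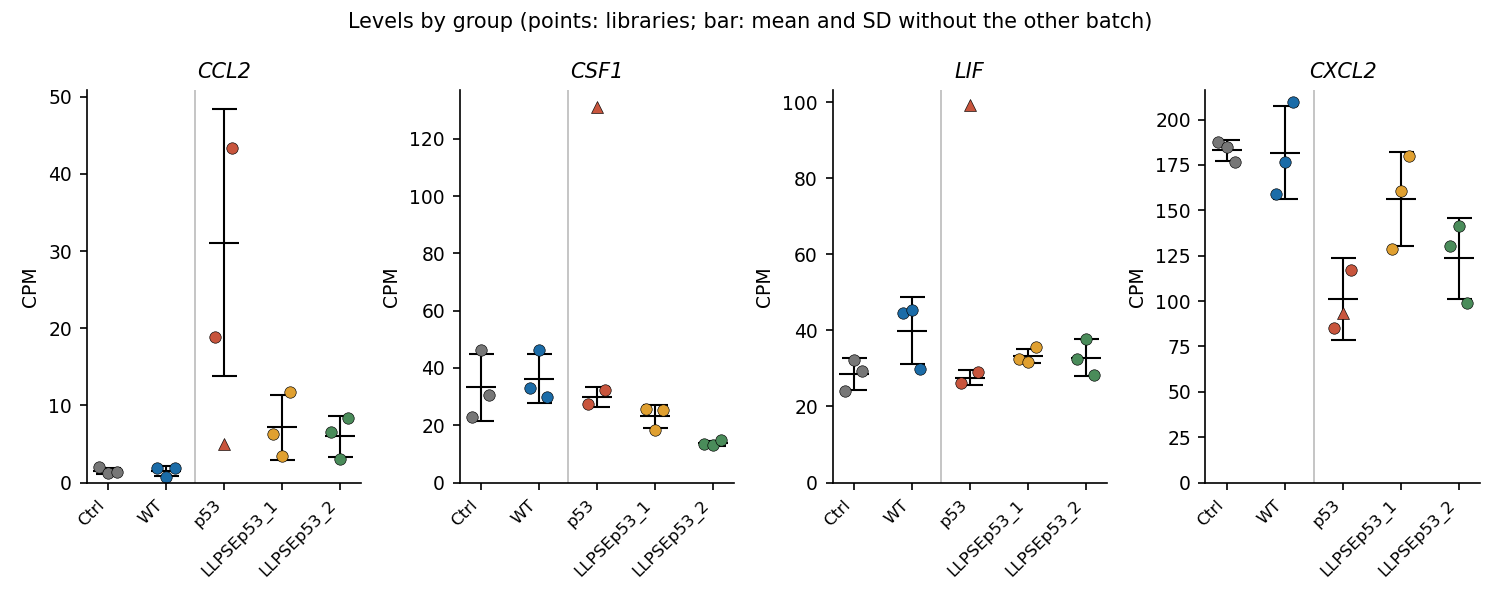
CCL2, CSF1, LIF and CXCL2 on linear y axes in CPM, by group on the x axis; points are libraries, bars are the mean and SD without p53 replicate 2, which is drawn as a triangle. In p53 replicate 2, CSF1 and LIF stand far above the other p53 libraries while CCL2 lies below them.

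CSF1 encodes the growth factor that keeps macrophages alive through the receptor CSF1R (ENSG00000184371; chromosome 1, 109910242 to 109930992, plus strand). In 2023 it was at 33.1, 46.2 and 29.7 CPM in WT and at 23.0, 46.1 and 30.5 CPM in Ctrl. These groups overlapped, with a log2 difference of 0.13 ± 0.19 that turned to -0.08 without WT replicate 2 or without Ctrl replicate 1. In 2022 it was at 27.3 and 32.3 CPM in p53, at 25.7, 18.4 and 25.2 CPM in LLPSEp53_1 and at 13.4, 13.0 and 14.8 CPM in LLPSEp53_2. All LLPSEp53_2 libraries were below all others of that year, and all LLPSEp53_1 libraries were below both p53 libraries.

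The mean of CSF1 was 29.8 ± 3.51 CPM in p53 (SD, n = 2), 23.1 ± 4.06 in LLPSEp53_1 and 13.7 ± 0.918 in LLPSEp53_2 (SD, n = 3 each). Its difference from p53 was -1.11 ± 0.17 in LLPSEp53_2, or 2.17-fold lower, which passed the threshold, and -0.37 ± 0.17 in LLPSEp53_1, which did not. Between the constructs, LLPSEp53_2 was 1.68-fold lower than LLPSEp53_1 (-0.75 ± 0.16), which did not pass in edgeR and passed in DESeq2. The LLPSEp53_2 difference from p53 ran from -1.23 to -0.99 when libraries were left out in turn, and the call was lost only without p53 replicate 3. Replicate 2 of p53 held 131 CPM, 4.40 times the other p53 libraries, and with it counted as an ordinary library the differences became -2.21 for LLPSEp53_2 and -1.46 for LLPSEp53_1.

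LIF encodes a cytokine of the interleukin-6 family that signals through LIFR and IL6ST, and it is known as a p53 target gene (ENSG00000128342; chromosome 22, 30240447 to 30246851, minus strand). In 2023 it was at 44.7, 45.5 and 29.8 CPM in WT and at 23.9, 32.2 and 29.3 CPM in Ctrl. Replicates 1 and 2 of WT were above all Ctrl libraries, whereas replicate 3 lay among them. The mean was 40.0 ± 8.80 CPM in WT and 28.5 ± 4.22 in Ctrl (SD, n = 3 each), 1.40-fold apart with a log2 difference of 0.49 ± 0.15, which did not pass the threshold. It passed without WT replicate 3 (0.66) and without Ctrl replicate 2 (0.58).

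In 2022 LIF was at 26.1 and 29.1 CPM in p53, at 32.5, 31.8 and 35.5 CPM in LLPSEp53_1 and at 32.4, 37.8 and 28.4 CPM in LLPSEp53_2. LLPSEp53_1 was above both p53 libraries and LLPSEp53_2 overlapped them, with differences of 0.27 ± 0.16 and 0.25 ± 0.16, neither of which passed. Replicate 2 of p53 held 99.3 CPM, 3.60 times the other p53 libraries. Counted as an ordinary library, it turned the differences to -0.63 and -0.65. The antisense genes LIF-AS1 and LIF-AS2 overlap LIF by 92 and 647 bases. Without a known strand setting their reads cannot be told apart from those of LIF. As counted, LIF-AS2 held no more than 3.30 CPM in any library and LIF-AS1 0.235 CPM. These values set no limit on antisense reads within LIF, since it is not stated how reads in the overlap were counted.

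IL6, the cytokine that gives this family its name, had 0 counts in 11 of the 15 libraries, and 1 or 2 in the others. IL1A and IL1B encode the interleukin-1 proteins that start inflammatory signalling, and they were also near the limit of detection. IL1A held 3, 9 and 18 counts in LLPSEp53_2 and 0 to 6 counts in every other library, and IL1B held 0 to 8 counts with no group apart from the rest. These counts are too few for a fold change.

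Of the 10 genes, 6 passed the filter in 2023 and 5 in 2022. In WT against Ctrl, 0 of 6 passed the adjusted threshold in edgeR and 0 in DESeq2 (1, LIF, had an unadjusted p below 0.05 in edgeR), beside 4.12% of all genes tested, and none of these 6 had groups apart, beside 22.4% of all genes. In LLPSEp53_1 against p53, 0 of 5 passed in edgeR and 0 in DESeq2 (2, CXCL2 and CCL2, had an unadjusted p below 0.05), beside 0.888% of all genes. Groups did not overlap for 4 of the 5 (CXCL2 and LIF higher, CCL2 and CSF1 lower), beside 26.9% of all genes, 12.2% higher and 14.7% lower. In LLPSEp53_2 against p53, CCL2 and CSF1 passed, 2 of 5 in both edgeR and DESeq2, beside 1.93% of all genes, and the same 2 had groups apart, beside 33.1%. Both were lower, beside 1.83% of all genes by the threshold and 17.5% by groups apart. In LLPSEp53_2 against LLPSEp53_1, 0 of 5 passed in edgeR and 1 in DESeq2 (CSF1, also the 1 gene with an unadjusted p below 0.05 in edgeR), beside 0.372% of all genes, and CSF1 alone of these 5 had groups apart, beside 13.0%, or 7.03% in its direction, lower. Among genes below the filter, IL1A had groups apart in WT against Ctrl, at 1 count in each WT library and 0 or 1 in Ctrl, and in LLPSEp53_2 against LLPSEp53_1, and CX3CL1 in LLPSEp53_1 against p53. Nothing is read from these counts, since the genes were chosen with the differences known.

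Over the members that passed the filter, the median log2 difference from p53 was -0.34 in LLPSEp53_1 and -0.29 in LLPSEp53_2. It was -0.26 in LLPSEp53_2 against LLPSEp53_1. The median of all genes was within 0.01 of 0 in each of these. Over 5 members a median is the value of a single gene. Against p53 that gene was CXCL1 (SE 0.40 for LLPSEp53_1 and 0.39 for LLPSEp53_2). Between the constructs it was CCL2 (SE 0.45). Against p53, CXCL2 and LIF lay above 0 in both constructs, and CCL2, CXCL1 and CSF1 below. The medians therefore do not show that the members were lower as a set. In WT against Ctrl the median was 0.00 (all genes -0.01).

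Other genes of the same pathways were taken as 6 lists with 204 genes, of which 130 passed the filter in 2023 and 132 in 2022. These lists too were chosen with earlier results of these data known, so their counts are a description. In WT against Ctrl, 7 rose and 9 fell, with a median of -0.09, where 4.12% of all genes passed. The split of all 665 genes that passed was 524 higher and 141 lower, and 502 higher and 40 lower once each library's trend with GC content was removed, where 6 of the related genes rose and 5 fell. The count of related genes was 8 without WT replicate 1 and 9 without Ctrl replicate 3.

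Among the ligands, KITLG, the stem cell factor that acts on the receptor KIT, rose 1.96-fold in WT (edgeR adjusted p = 0.000125). Its mean was 26.3 ± 4.19 CPM in WT and 13.45 ± 0.386 CPM in Ctrl (SD, n = 3). It was the only 1 of 15 other cytokines and haematopoietic growth factors past the filter to change. Of 6 other chemokines past the filter, 0 changed in edgeR or DESeq2, 0 had an unadjusted p below 0.05, and 5 lay below 0. Of 13 receptors, IL1RAP, the shared subunit of the interleukin-1 receptor, was the 1 that rose, 1.49-fold (edgeR adjusted p = 0.0155), a call lost without WT replicate 1 or 2, without Ctrl replicate 3 and with the GC correction.

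Of 35 genes of upstream signalling, which belong to the NF-kB, AP-1 and JAK-STAT pathways, 6 fell and 1 rose in WT (median -0.17). With the GC correction 3 of them fell (FOS, JUN and TRAF1) and 1 rose. The immediate early factors FOS and JUN fell 1.65-fold and 1.59-fold, BCL3, a nuclear partner of NF-kB, fell 1.51-fold and TRAF1, an adaptor of TNF receptors, fell 1.43-fold (edgeR adjusted p = 0.00149, 0.00293, 0.0026 and 0.00518). JUN went from 611 ± 82.2 to 384 ± 49.2 CPM (SD, n = 3 each). Of 28 processing enzymes and inhibitors, 1 rose and 2 fell: ATF3, a stress-induced repressor, rose 1.41-fold, while NFKBIA, which holds NF-kB in the cytoplasm, fell 1.43-fold and TNFAIP3, which dampens NF-kB signalling, fell 1.34-fold (edgeR adjusted p = 0.0133, 0.0061 and 0.031). NFKBIA and TNFAIP3 are themselves well known NF-kB target genes. With 1 library left out, TNFAIP3 kept its call only without Ctrl replicate 2. The calls of NFKBIA, TRAF1 and ATF3 were lost without WT replicate 1, that of ATF3 also without Ctrl replicate 3, and those of BCL3, TRAF2 and NFKB2 with the GC correction (the last 2 are named after their values were seen).

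In the secretome list, 3 of 33 genes rose and 1 fell in WT. GDF15, a stress cytokine and p53 target, rose 2.79-fold and AREG, a ligand of the EGF receptor, rose 3.62-fold (edgeR adjusted p = 1.39e-06 and 0.000228). GDF15 had means of 166 ± 17.1 CPM in WT and 59.4 ± 15.3 CPM in Ctrl, and AREG 4.11 ± 0.3004 CPM and 1.13 ± 0.183 CPM (SD, n = 3). FAS, the death receptor, rose 1.57-fold (adjusted p = 0.00236). ANGPTL4, a secreted inhibitor of lipoprotein lipase, was 1.41-fold lower (adjusted p = 0.0148), a call lost with the GC correction and without WT replicate 1 or 3 or Ctrl replicate 1 or 3.

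In LLPSEp53_1 against p53, 0 of the 132 related genes past the filter changed in edgeR, beside 0.888% of all genes. At an unadjusted p below 0.05 there were 8 higher and 18 lower, and DESeq2 called 2. The median was -0.05. Leaving out LLPSEp53_1 replicate 1 gave 6 calls and leaving out its replicate 3 gave 2.

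In LLPSEp53_2 against p53, 1 of the 132 rose and 3 fell, with a median of -0.15 beside 0.01 for all genes. Of all genes tested 1.93% passed, most of them lower (1.83%). CXCL11, an interferon-induced chemokine for T cells, fell 2.50-fold, from 10.5 ± 1.69 (SD, n = 2) to 4.19 ± 1.22 CPM (SD, n = 3; edgeR adjusted p = 0.0178). TRAF1 fell 1.72-fold and the kinase gene MAP3K8 fell 2.14-fold, while FOSL1, an AP-1 subunit, rose 1.63-fold from 272 to 444 CPM (edgeR adjusted p = 0.0096, 0.0355 and 0.0381). CXCL11 was the 1 of 7 other chemokines past the filter to change. At an unadjusted p below 0.05 there were 4 higher and 24 lower. None of the 4 calls held without p53 replicate 3, and there was no call without LLPSEp53_2 replicate 2, 1 without LLPSEp53_2 replicate 1 or p53 replicate 1, 2 without LLPSEp53_2 replicate 3, 10 without LLPSEp53_1 replicate 1 and 14 without LLPSEp53_1 replicate 3. FOSL1 was at 0.07 on the log2 scale when p53 replicate 2 was counted as an ordinary library, against 0.71.

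In LLPSEp53_2 against LLPSEp53_1, ATF3 was the 1 related gene of 132 that passed, beside 0.372% of all genes. It fell 1.68-fold, from 68.9 ± 3.88 to 40.9 ± 4.40 CPM (SD, n = 3 each; edgeR adjusted p = 0.0417), and the call was lost without any 1 library of these 2 groups except LLPSEp53_1 replicate 3. CDKN1A was 1.63-fold lower in the same comparison (edgeR adjusted p = 0.0302). Of 7 other chemokines past the filter, 0 passed in edgeR or DESeq2 and 3 were lower at an unadjusted p below 0.05. All 7 lay below 0, with a median of -0.61.

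The genes whose levels followed the members most closely were sought over the 14 libraries outside the other batch, by Pearson correlation of log2 CPM (0.5 added) after subtracting each year's mean. For CCL2 the closest 3 of 11642 genes were ARG2 (r = 0.918), AMIGO2 (r = 0.915) and TGFBI (r = 0.912). ARG2, a mitochondrial arginase, was at 50.8 CPM in p53, 40.3 in LLPSEp53_1 and 35.2 in LLPSEp53_2, a far smaller span than that of CCL2. For CSF1 they were IFI44L (r = 0.911), ARHGEF4 (r = 0.899) and NPTX1 (r = 0.888). IFI44L, an interferon-induced gene, was at 22.7 CPM in p53, 12.4 in LLPSEp53_1 and 4.94 in LLPSEp53_2, in the order of CSF1. For LIF they included DGKA (r = 0.881) and ARVCF (r = 0.835), and DGKA, a diacylglycerol kinase, was at 23.4 CPM in WT and 18.1 in Ctrl. These are the highest of many correlations over libraries that share their groups, and they are given as a description.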

How the data were processed

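RNA-seq libraries were made from total RNA with an Illumina kit, per the labels' protocols. The submitters' processing notes name Trimmomatic 0.39, STAR 2.7.10a and GRCh38, while the counting tool, annotation and strand setting are not stated in the sources used here. The authors deposited raw counts per gene, which were whole numbers of differing totals. Symbols were found for 61399 of 61552 gene IDs, and positions and exon lengths come from GENCODE release 29.

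Tests were run by edgeR 4.0.16 in R 4.3.3 (TMM scaling, filterByExpr, quasi-likelihood test, Benjamini-Hochberg adjustment over all genes, threshold 0.05). WT and Ctrl were fitted on 6 libraries, and the 9 libraries of 2022 together with a term for the other batch, so that p53 replicate 2 entered no difference and p53 was represented by 2 libraries. Adjusted p-values of single genes come from edgeR and measure the spread between libraries, which may be technical. CPM are TMM-scaled.

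The members and the lists of related genes were chosen with earlier results of these data known, and the motif letters after the sequences were available. All members, CDKN1A and MDM2 are named, with up to 4 genes of each list past the threshold by adjusted p, and the 3 genes most like CCL2, CSF1 and LIF among genes averaging log2 CPM 2 or more. IL6, IL1A, IL1B, CX3CL1 and CXCL8 lacked the counts for a fit in 2022. Certain results are not reported here.

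Alternatives tried were no filter, upper-quartile or relative log expression scaling, DESeq2 1.42.0, each library left out, the replicate number as a block, GC offsets (spline of 5 degrees of freedom), no batch term, and only the groups compared. A GC value was known for 99.7% (2023) and 99.6% (2022) of genes over a log2 CPM of 2. All libraries within a group differed by more than sampling noise (7.46 to 128 chi-square units per degree of freedom). The steps were also run on counts simulated with the fitted spread and known changes. The simulation held no shift for the other batch, so it does not show how the steps handle p53 replicate 2.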

Additional observations from a re-analysis of the deposited data

How the results depend on the processing

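Counts of genes past the threshold moved with the settings, and the cause was not tested. For WT against Ctrl the main counts were 665 of all genes, 16 related genes and 0 members, with 1 member (LIF) without the filter. With libraries left out in turn they ran from 356 to 1381, from 8 to 22 and from 0 to 1. For LLPSEp53_1 against p53 the main counts were 155, 0 and 0. All genes numbered 562 without the filter, 258 with DESeq2, 239 with GC offsets, 94 without the batch term and 64 with only the 2 groups. Related genes numbered 5, 2 and 3 under the first 3 of these and 1 under relative log expression scaling, and members 2 without the filter. With libraries left out the counts ran from 0 (without p53 replicate 3) to 568, from 0 to 6 and from 0 to 1. For LLPSEp53_2 against p53 the main counts were 337, 4 and 2. All genes numbered 823 without the filter, 507 with DESeq2, 545 with GC offsets and 1040 with only the 2 groups, related genes 14, 9, 10 and 17, and members 1 without the batch term. With libraries left out they ran from 93 (without p53 replicate 3) to 928, from 0 to 14 and from 0 to 2. For LLPSEp53_2 against LLPSEp53_1 the main counts were 65, 1 and 0. All genes numbered 235 without the filter, 151 with DESeq2, 105 with GC offsets, 3 without the batch term and 35 with only the 2 groups, related genes 2, 3, 2, 0 and 0, and members 1 under each of the first 3. With libraries left out they ran from 21 to 198, from 0 to 2 and from 0 to 1.

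The labels do not say that replicate numbers pair libraries, and deviations of same-numbered libraries correlated by 0.02 to 0.25 in 2023 and by -0.38 to 0.18 in 2022. Unlike-numbered libraries of different groups correlated by -0.21 to 0.13 in 2023 and by -0.20 to 0.36 in 2022. The deviations of p53 replicates 1 and 3 mirror each other, so their values are not independent. With the replicate number as a block the counts of all genes were 1645 for WT against Ctrl, 40 for LLPSEp53_1 against p53, 183 for LLPSEp53_2 against p53 and 33 for LLPSEp53_2 against LLPSEp53_1. Related genes numbered 27, 0, 1 and 0, and members 1 (LIF), 1 (CCL2), 2 and 0. CCL2 was lowest in replicate 2 of all 5 groups, but p53 replicate 2 is in the other batch and entered no difference. The SE of the CCL2 difference between LLPSEp53_1 and p53 was 0.24 with the block and 0.46 without. It was 0.22 without the block when the filter on low counts was left out, so the smaller SE does not show that replicate numbers pair libraries.

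Over the named genes and all alternatives, 221 values kept a call and 54 lost one, all in the same direction. Of values that had not passed, 13 gained a call, 254 kept their direction and 26 turned it; those 26 were of CCL2, CXCL1, CXCL2, CXCL8, CSF1 and LIF. Genes under about 0.2 CPM could not be told from 0 counts at this depth.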
